A study of Danio rerio with 15 samples.

Results

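The Hox genes encode homeodomain transcription factors that give cells along the body their position. They lie in clusters on the chromosomes, and within a cluster the genes of low paralog number are active towards the head (hindbrain and pharyngeal arches) and those of high number towards the trunk, tail and fins. In the zebrafish, whose lineage duplicated its genome once more than that of mammals, many Hox genes exist as an a and a b copy in separate clusters. The proteins bind DNA together with TALE homeodomain cofactors (Pbx, Meis and Prep), retinoic acid and Cdx proteins set where the genes are switched on, and Polycomb and Trithorax proteins hold the off and on states.

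The members described here are the probe sets whose only gene symbol in the array annotation is a Hox symbol of the a, b, c or d clusters. There were 59 such probe sets for 42 genes, and each gene is represented by its brightest probe set, out of 8793 genes represented in the same way and 15502 probe sets tested. The 42 genes cover 7 clusters (named aa, ab, ba, bb, ca, cb and da after the letter and the copy) and all 13 paralog numbers. All 42 matched a RefSeq gene of the same symbol. RefSeq lists 50 Hox genes in the zebrafish, and the other 8 (*hoxa10ap*, *hoxa13a*, *hoxb13a*, *hoxb1b*, *hoxc10a*, *hoxc12a*, *hoxc13b* and *hoxd12a*) were not analysed here. For description, paralog numbers 1 to 4 are called anterior (13 genes), 5 to 8 central (12 genes) and 9 to 13 posterior (17 genes).

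Whole zebrafish embryos of wild type origin were studied in 4 groups: *esco2* morphants at 48 hpf (4 arrays), controls at 48 hpf (3 arrays, numbered 1, 3 and 4), *esco2* morphants at 24 hpf (4 arrays) and controls at 24 hpf (4 arrays). Morphants carried a morpholino that blocks translation of *esco2*, the acetyltransferase that establishes cohesion between sister chromatids, injected into the yolk at the start of cleavage. Controls were injected with buffer only, so that an effect of injecting any morpholino cannot be told apart from loss of Esco2. Each array was hybridized with RNA from a pool of 50 embryos, and in such RNA fewer cells of a type and less RNA per cell cannot be told apart.

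Values are log2 signals, and a gene is called changed at an adjusted p under 0.05 in limma. The *esco2* transcript, which does not report the block of its translation, differed by 0.39 between morphants and controls at 48 hpf (adjusted p = 0.00643) and by -0.31 at 24 hpf (adjusted p = 0.0345). Control replicate 3 at 48 hpf stood apart. Its mean correlation with its own group was 0.985, against 0.989 to 0.997 for the other arrays, and the median of its probe sets for artificial and bacterial sequences, which have no target in the sample, was 4.52, against 3.73 to 4.29. Over all arrays the 20 probe sets without a target averaged between 3.16 and 5.05, and 10 of the 42 Hox genes lay below that upper value (*hoxa11a*, *hoxa13b*, *hoxa1a*, *hoxb1a*, *hoxb4a*, *hoxb7a*, *hoxc11b*, *hoxc1a*, *hoxc3a* and *hoxc6b*), where an array can show only part of a change. Hox gene means ran between 3.89 for *hoxa1a* and 8.96 for *hoxb3a*. A level is not compared between genes, because the probes differ.

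At 48 hpf, 10 of the 42 Hox genes (23.8%) were changed in *esco2* morphants, a share near the 26.0% of all genes. Lower in morphants were 7 of them: *hoxc4a*, *hoxa9b*, *hoxa13b*, *hoxb5a*, *hoxa5a*, *hoxb6a* and *hoxb6b*. Higher were 3: *hoxc6b*, *hoxd4a* and *hoxc1a*. By direction this is 16.7% lower, against 11.7% of all genes, and 7.14% higher, against 14.3% of all genes. No Hox gene passed the stricter rule of the study's methods, which adds a fold of at least 2 and which 0.921% of all genes passed. A fold of at least 1.5 was reached by 2 (*hoxc4a* and *hoxa9b*), against 5.75% of all genes, and the unadjusted p was under 0.05 for 17 of the 42, against 38.2% of all genes. The morphant arrays all lay above the control arrays for 3 Hox genes (15.6% of all genes) and all below for 9 (13.8% of all genes), together 28.6%, against 29.4% of all genes. With each array centred on 66 ribosomal protein genes, which raised the median difference of all probe sets at 48 hpf by 0.12, the same count of 10 was split into 6 higher and 4 lower, and with cyclic loess 2 were higher and 9 lower. The count was 5 without control replicate 1 or without morphant replicate 2 at 48 hpf, and 11 (3 higher, 8 lower) without control replicate 3.

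At 24 hpf, 5 of the 42 (11.9%) were changed, against 12.0% of all genes, and all 5 were lower in morphants: *hoxa2b*, *hoxa9a*, *hoxa4a*, *hoxd10a* and *hoxd11a*. By direction 11.9% were lower, against 6.2% of all genes, and 0 were higher, against 5.77% of all genes, while the unadjusted p was under 0.05 for 12 of the 42, against 26.4% of all genes. None passed with a fold of at least 2 or 1.5, against 0.512% and 2.02% of all genes. The arrays did not overlap for 10 Hox genes, 23.8% against 25.2% of all genes, with 2 above the controls (12.7% of all genes) and 8 below (12.5% of all genes). Leaving out 1 array at 24 hpf gave 3 changed genes (without control replicate 1 or morphant replicate 4) or 2 (without morphant replicate 1), and leaving out control replicate 3 at 48 hpf gave 9, all lower. None of these fits made a Hox gene higher at 24 hpf.

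**Figure D1:**
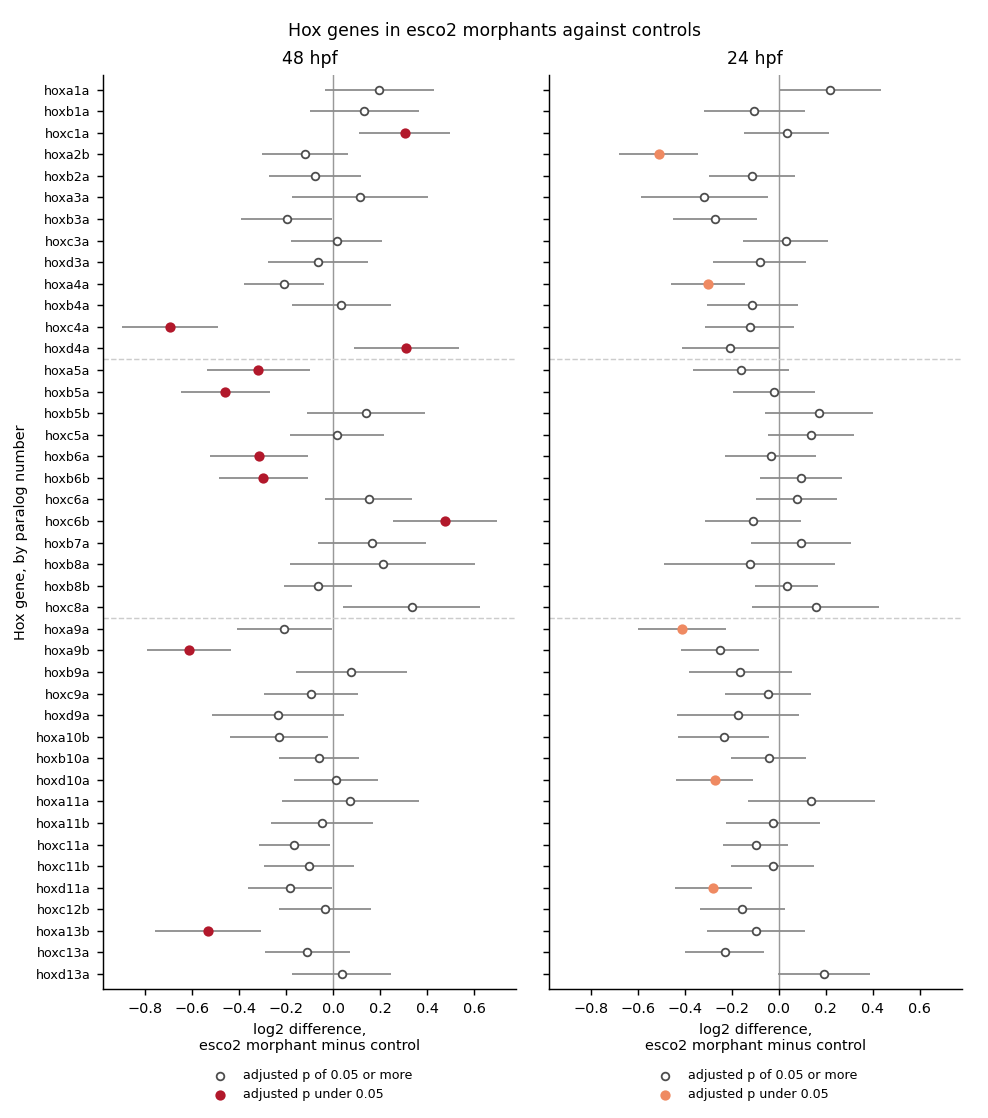
Log2 difference, esco2 morphant minus control (horizontal axis, with its 95% confidence interval), of the 42 Hox genes in order of paralog number (top to bottom), at 48 hpf (left) and 24 hpf (right). Filled points have an adjusted p under 0.05: 10 at 48 hpf, on both sides of 0, and 5 at 24 hpf, all below 0; dashed lines part the anterior, central and posterior genes.

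Over all 42 genes the median difference between morphants and controls was -0.06 at 48 hpf, beside 0.01 over all genes, and changed sign to 0.05 with the ribosomal centring. It was -0.12 with cyclic loess, and at 48 hpf -0.10 without control replicate 3, -0.04 without control replicate 4 and -0.02 without morphant replicate 3. At 24 hpf it was -0.10, beside 0.01 over all genes, and was -0.08 with the ribosomal centring, -0.11 with cyclic loess, -0.06 with probe sets averaged per gene and -0.07 without morphant replicate 1. Values below 0 were found for 30 of the 42 genes at 24 hpf (71.4%), against 48.0% of all genes. In total 15 Hox genes were changed at one of the times and none at both. Whether an effect differed between the times was tested on its own and is given after the single genes.

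Among the anterior genes, which serve the hindbrain, the pharyngeal arches and the front of the spinal cord, *hoxc4a* had the largest difference of any Hox gene at 48 hpf. Its values were 6.85, 6.84, 6.84 and 6.97 in morphants at 48 hpf, against 7.67, 7.37 and 7.68 in controls at 48 hpf. At 24 hpf they were 6.19, 6.23, 6.15 and 6.51 in morphants, against 6.49, 6.32, 6.33 and 6.44 in controls. The groups were clear of each other at 48 hpf and overlapped at 24 hpf. *hoxc4a* was 1.62-fold lower in morphants at 48 hpf (log2 difference -0.70, standard error 0.10, adjusted p = 7.0e-05) and differed by -0.13 at 24 hpf (adjusted p = 0.46). The call at 48 hpf held under every alternative, with adjusted p of at most 0.00285.

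*hoxd4a*, of the same paralog number in another cluster, had the opposite sign. It measured 7.33, 7.14, 6.92 and 6.96 in morphants at 48 hpf, against 6.71, 6.74 and 6.88 in controls, and 7.40, 7.09, 7.47 and 7.46 in morphants at 24 hpf, against 7.55, 7.48, 7.62 and 7.61 in controls. All morphant arrays lay above the controls at 48 hpf and below them at 24 hpf. The difference was 0.31 at 48 hpf (standard error 0.11, adjusted p = 0.0429), the call nearest to the threshold, and -0.21 at 24 hpf (adjusted p = 0.219). It was lost without control replicate 1 (adjusted p = 0.131) or 3 (0.0841) at 48 hpf, without morphant replicate 1 (0.127) or 2 (0.0945) at 48 hpf, and, by a small margin, without 6 of the 8 arrays at 24 hpf, which were control replicates 1 to 4 and morphant replicates 1 and 4 (0.0501 to 0.0541; range over its alternatives 0.0058 to 0.25). A second probe set of *hoxd4a* did not show it (0.03, adjusted p = 0.905).

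*hoxc1a* belongs to a paralog that the zebrafish has in this cluster and mammals lack. Its values were 4.79, 4.83, 4.45 and 4.80 in morphants at 48 hpf, against 4.42, 4.39 and 4.42 in controls, and in both groups lay in the range of probe sets without a target. Every morphant array was above the controls, replicate 3 by little, and the difference was 0.30 (standard error 0.09, adjusted p = 0.0231). The call was lost without control replicate 1 (adjusted p = 0.0541) or morphant replicate 1 (0.0571), 2 (0.0714) or 4 (0.0608) at 48 hpf (range over its alternatives 0.0021 to 0.0993). At 24 hpf the difference was 0.03 (adjusted p = 0.877).

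*hoxa2b*, which has a part in the identity of the hyoid arch, was the Hox gene with the largest difference at 24 hpf. It had 7.0, 7.0, 7.0 and 6.96 in morphants at 24 hpf, against 7.45, 7.57, 7.51 and 7.48 in controls at 24 hpf. At 48 hpf it had 6.98, 7.09, 6.84 and 6.87 in morphants, against 6.99, 7.29 and 6.92 in controls. The 24 hpf groups were far apart and the 48 hpf groups overlapped. It was 1.43-fold lower at 24 hpf (log2 difference -0.51, standard error 0.08, adjusted p = 4.3e-04), a call that held under every alternative, and differed by -0.12 at 48 hpf (adjusted p = 0.35). The controls themselves stood at 7.07 ± 0.19 (SD, n = 3) at 48 hpf and 7.50 ± 0.05 (SD, n = 4) at 24 hpf.

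*hoxa4a*, active from the rear hindbrain backwards, was likewise lower at 24 hpf, with 6.21, 6.31, 6.38 and 6.27 in morphants, against 6.52, 6.64, 6.61 and 6.60 in controls. The groups did not overlap (-0.30, standard error 0.07, adjusted p = 0.0153), and the call was lost without morphant replicate 1 (-0.27, adjusted p = 0.0553; range over its alternatives 0.0016 to 0.0553). At 48 hpf the values were 6.34, 6.07, 6.08 and 6.1 in morphants, against 6.48, 6.27 and 6.33 in controls. They overlapped, and *hoxa4a* was the gene just outside the threshold there (-0.21, adjusted p = 0.0707).

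*hoxb3a*, a gene of the rear hindbrain and the brightest member, was just outside the threshold at 24 hpf (-0.27, adjusted p = 0.0513). Its values were 8.61, 8.61, 8.81 and 8.74 in morphants at 24 hpf, against 8.92, 9.05, 8.90 and 9.0 in controls, and all morphant arrays were below the controls. *hoxb1a*, which specifies the fourth rhombomere of the hindbrain, differed by 0.13 at 48 hpf (adjusted p = 0.439) and by -0.11 at 24 hpf (adjusted p = 0.609). *hoxa1a*, the dimmest member, had 3.83, 4.02, 4.05 and 3.80 in morphants at 24 hpf, against 3.67, 3.79, 3.68 and 3.68 in controls. No array overlapped, but the difference of 0.22 did not pass the test (adjusted p = 0.214). The other anterior genes, *hoxb2a*, *hoxa3a*, *hoxc3a*, *hoxd3a* and *hoxb4a*, had differences between -0.08 and 0.11 at 48 hpf and between -0.32 and 0.03 at 24 hpf, and none passed.

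Of the 12 central genes, which pattern the trunk, 5 were changed at 48 hpf and none at 24 hpf, beside 26.0% and 12.0% of all genes. *hoxb5a*, expressed in the spinal cord and trunk mesoderm, measured 6.55, 6.77, 6.85 and 6.94 in morphants at 48 hpf, against 7.22, 7.14 and 7.35 in controls. At 24 hpf it measured 6.73, 6.57, 6.78 and 6.73 in morphants, against 6.75, 6.75, 6.73 and 6.66 in controls. The controls at 48 hpf were above all other arrays, and the morphants at 48 hpf lay in or near the range of the 24 hpf arrays. The difference at 48 hpf was -0.46 (standard error 0.09, 1.38-fold lower, adjusted p = 0.00127), and the call held under every alternative. At 24 hpf it was -0.02 (adjusted p = 0.919).

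*hoxa5a*, another paralog 5 gene, had 5.31, 5.05, 4.99 and 5.42 in morphants at 48 hpf, against 5.58, 5.44 and 5.53 in controls. The groups did not overlap, but the highest morphant array came close to the lowest control array. The difference was -0.32 (standard error 0.10, adjusted p = 0.0338), and it was lost without control replicate 1 (adjusted p = 0.111) or 4 (0.0622) or morphant replicate 2 (0.10) or 3 (0.0985) at 48 hpf. The ribosomal centring gave -0.20 (adjusted p = 0.181; range over its alternatives 0.0026 to 0.181). At 24 hpf *hoxa5a* differed by -0.16 (adjusted p = 0.358).

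The a and b copies of *hoxb6*, a trunk gene, had similar differences at 48 hpf. *hoxb6a* had 6.61, 6.38, 6.13 and 6.41 in morphants at 48 hpf, against 6.65, 6.81 and 6.62 in controls, and *hoxb6b* had 5.64, 5.60, 5.58 and 5.67 in morphants, against 5.96, 5.73 and 6.08 in controls. Neither pair of groups overlapped, although morphant replicate 1 came close to the controls for *hoxb6a*. *hoxb6a* differed by -0.32 (standard error 0.10, adjusted p = 0.0291) and *hoxb6b* by -0.30 (standard error 0.09, adjusted p = 0.0228). The *hoxb6a* call was lost without control replicate 1 (adjusted p = 0.0513) or 3 (-0.26, adjusted p = 0.0964) or morphant replicate 2 (0.0584) or 3 (0.0859) at 48 hpf. That of *hoxb6b* was lost without control replicate 1 (0.0735) or 4 (0.0985) or morphant replicate 2 (0.0517) at 48 hpf. With the ribosomal centring *hoxb6a* stood at -0.20 (adjusted p = 0.13; range over its alternatives 0.0084 to 0.13) and *hoxb6b* at -0.18 (adjusted p = 0.138; range 0.0019 to 0.138). At 24 hpf *hoxb6a* differed by -0.03 and *hoxb6b* by 0.10, and neither passed.

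*hoxc6b*, in contrast, was the Hox gene with the largest positive difference at 48 hpf. Its values were 4.73, 4.94, 4.78 and 5.08 in morphants at 48 hpf, against 4.37, 4.26 and 4.59 in controls, and 5.01, 5.03, 5.18 and 5.17 in morphants at 24 hpf, against 5.41, 5.20, 5.03 and 5.19 in controls. The lowest arrays of all were the controls at 48 hpf. The difference at 48 hpf was 0.48 (standard error 0.11, 1.39-fold higher, adjusted p = 0.00328) and held under every alternative that kept this dim gene. At 24 hpf it was -0.11 (adjusted p = 0.564). The gene was dim, with all its values in the range that includes probe sets without a target, or just above it.

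The other 7 central genes (*hoxb5b*, *hoxc5a*, *hoxc6a*, *hoxb7a*, *hoxb8a*, *hoxb8b* and *hoxc8a*) had differences between -0.07 and 0.33 at 48 hpf and between -0.12 and 0.17 at 24 hpf, and none passed the test. *hoxc8a* had the largest of these, with 8.54, 8.66, 8.73 and 8.64 in morphants at 48 hpf, against 8.41, 7.83 and 8.68 in controls (0.33, adjusted p = 0.094). *hoxb8a* had 7.68, 7.35, 7.80 and 7.54 in morphants at 48 hpf, against 7.47, 6.73 and 7.95 in controls (0.21, adjusted p = 0.472). For both the low value was that of control replicate 3, the array that stood apart.

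Posterior genes, active in the hind part of the spinal cord, the tail and the fins, were on the low side at both times. Values below 0 were found for 13 of the 17 at 48 hpf and for 15 of the 17 at 24 hpf, beside 48.2% and 48.0% of all genes. The median was -0.11 at 48 hpf and changed sign to 0.01 with the ribosomal centring, under which 7 of the 17 were below 0; at 24 hpf it was -0.16, and -0.13 with that centring. Changed genes were 2 at 48 hpf and 3 at 24 hpf, all lower, beside 11.7% and 6.2% of all genes lower. At 48 hpf the share was that of all genes. The low side at 24 hpf was not particular to posterior genes. Of the anterior genes 10 of 13 were below 0 at 24 hpf (median -0.11, 2 lower), and 6 of 13 at 48 hpf (median 0.01). Of the central genes 5 of 12 were below 0 at each time (median 0.08 at 48 hpf, 1 higher and 4 lower). At 48 hpf these counts depended on control replicate 3. Without it 7 of the 12 central genes (median -0.10), 7 of the 13 anterior genes (median -0.003) and 15 of the 17 posterior genes (median -0.16) were below 0. With the ribosomal centring 4 of the 12 central genes were below 0 at 48 hpf, with 3 higher and 1 lower.

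*hoxa9b* had the smallest adjusted p of all Hox genes at 48 hpf. Its values were 6.09, 5.93, 6.09 and 6.31 in morphants at 48 hpf, against 6.71, 6.65 and 6.80 in controls, and 6.45, 6.52, 6.38 and 6.34 in morphants at 24 hpf, against 6.67, 6.66, 6.61 and 6.75 in controls. Morphants were below controls in every array at both times. The difference at 48 hpf was -0.61 (standard error 0.08, 1.53-fold lower, adjusted p = 6.5e-05), which held under every alternative. At 24 hpf it was -0.25 (adjusted p = 0.0517), just outside the threshold.

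The other copy, *hoxa9a*, was changed at 24 hpf. It had 5.15, 5.03, 5.21 and 5.10 in morphants at 24 hpf, against 5.56, 5.50, 5.33 and 5.76 in controls, and 5.12, 5.09, 5.02 and 5.12 in morphants at 48 hpf, against 5.17, 5.25 and 5.47 in controls. The arrays did not overlap at either time. The difference at 24 hpf was -0.41 (standard error 0.09, 1.33-fold lower, adjusted p = 0.00553) and held under every alternative. At 48 hpf it was -0.21 (adjusted p = 0.132). The second probe set of *hoxa9a* was also lower at 24 hpf (-0.36, adjusted p = 0.0358), but its mean of 4.32 lay in the range of probe sets without a target.

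*hoxa13b*, whose paralog shapes the outer part of fins and limbs and the tail end, had 4.80, 4.70, 4.56 and 4.91 in morphants at 48 hpf, against 5.47, 5.25 and 5.10 in controls. At 24 hpf it had 4.46, 4.68, 4.78 and 4.74 in morphants, against 4.73, 4.63, 4.90 and 4.79 in controls. Only the controls at 48 hpf lay above the range of the probe sets without a target. The difference was -0.53 (standard error 0.11, 1.45-fold lower, adjusted p = 0.00154) at 48 hpf and held under every alternative that kept this dim gene, and was -0.10 at 24 hpf (adjusted p = 0.623).

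*hoxd10a* and *hoxd11a*, neighbours in the da cluster in RefSeq's order that act in the fin bud and hind spinal cord, were both lower at 24 hpf. *hoxd10a* measured 6.81, 6.70, 6.76 and 6.77 in morphants at 24 hpf, against 7.12, 6.97, 6.98 and 7.07 in controls. *hoxd11a* measured 5.26, 5.37, 5.17 and 5.06 in morphants, against 5.49, 5.61, 5.38 and 5.50 in controls. Neither overlapped, though morphant replicate 2 came close to control replicate 3 for *hoxd11a*. The differences were -0.27 (standard error 0.08, adjusted p = 0.0353) for *hoxd10a* and -0.28 (standard error 0.08, adjusted p = 0.0324) for *hoxd11a*. The first was lost in turn without control replicates 1, 3 and 4 and each of the morphant replicates at 24 hpf (adjusted p = 0.0542 to 0.102; range over its alternatives 0.0072 to 0.102), and the second without control replicates 1, 2 and 4 and morphant replicates 1, 3 and 4 at 24 hpf (adjusted p = 0.052 to 0.108; range over its alternatives 0.009 to 0.108). At 48 hpf *hoxd10a* differed by 0.01 and *hoxd11a* by -0.19 (adjusted p = 0.13).

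The other 12 posterior genes (*hoxb9a*, *hoxc9a*, *hoxd9a*, *hoxa10b*, *hoxb10a*, *hoxa11a*, *hoxa11b*, *hoxc11a*, *hoxc11b*, *hoxc12b*, *hoxc13a* and *hoxd13a*) did not pass at either time, with differences between -0.23 and 0.08 at 48 hpf and between -0.23 and 0.19 at 24 hpf.

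**Figure D2:**
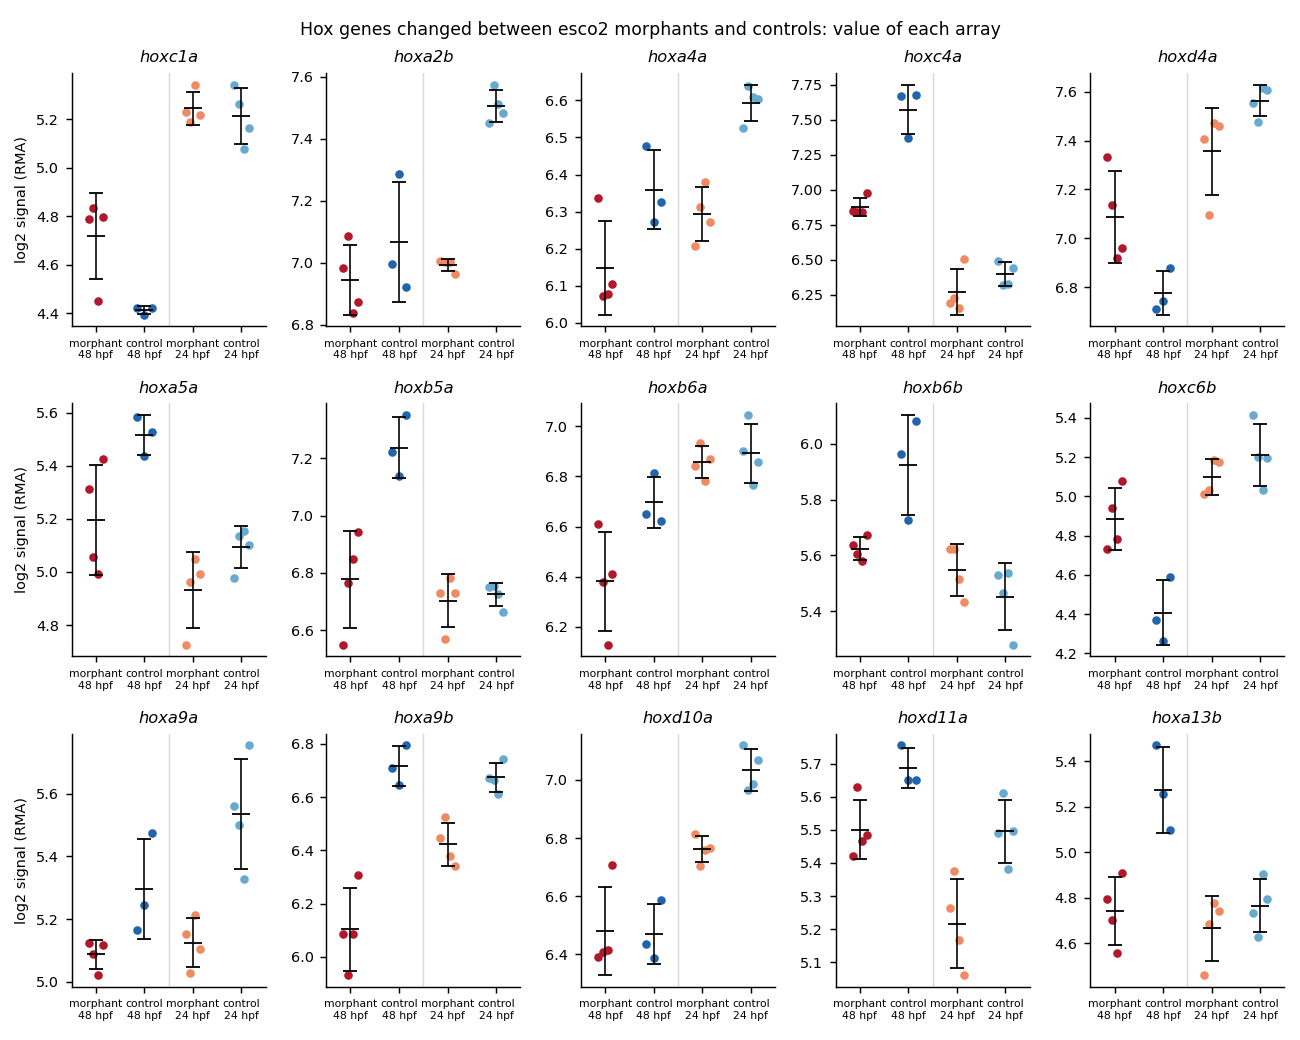
Log2 signal of each array (points) for the 15 Hox genes changed between esco2 morphants and controls at either time, with the group mean and SD (bars), for morphants and controls at 48 hpf and morphants and controls at 24 hpf. Each gene has its own vertical scale, which does not start at 0; hoxc4a separates the groups at 48 hpf only, and hoxa2b at 24 hpf only.

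The difference between the effects at 48 and 24 hpf was past the threshold for 4 Hox genes (9.52%), against 7.21% of all genes, with 2 higher (4.05% of all genes) and 2 lower (3.16% of all genes). The unadjusted p was under 0.05 for 11, against 21.7% of all genes, 1 passed with a ratio of at least 1.5 (3.71% of all genes) and 0 with at least 2 (0.535% of all genes). For *hoxc6b* the effect at 48 hpf exceeded that at 24 hpf by 0.59 (standard error 0.14, adjusted p = 0.0206), and for *hoxd4a* by 0.52 (standard error 0.14, adjusted p = 0.0411). For *hoxc4a* the difference between the effects was -0.57 (standard error 0.13, adjusted p = 0.0152), and for *hoxb5a* -0.44 (standard error 0.12, adjusted p = 0.0416). *hoxc4a* and, where the alternative kept it, *hoxc6b* held the call throughout. *hoxd4a* lost it in 9 of the 15 fits that left out 1 array: without control replicate 1 or 3 or morphant replicate 1 or 2 at 48 hpf, and without control replicate 1, 3 or 4 or morphant replicate 1 or 2 at 24 hpf (adjusted p = 0.0548 to 0.0856). *hoxb5a* lost it in 11 of them, all but those without control replicate 3 or morphant replicate 3 or 4 at 48 hpf or without morphant replicate 2 at 24 hpf (adjusted p = 0.0605 to 0.0858), and with the ribosomal centring (-0.35, adjusted p = 0.117; range over its alternatives 0.006 to 0.117). The count was 2 without 7 of the 15 arrays: control replicates 1, 3 and 4 and morphant replicate 1 at 24 hpf, and control replicate 1 and morphant replicates 1 and 2 at 48 hpf. The second probe set of *hoxd4a* did not pass the test of the difference (0.28, adjusted p = 0.397). Just outside the threshold was *hoxa2b* (0.39, adjusted p = 0.0607). For the other genes changed at one time only, such as *hoxa9b* (-0.36, adjusted p = 0.0744), *hoxb6b* (-0.39, adjusted p = 0.0673) and *hoxa13b* (-0.43, adjusted p = 0.0929), the effects were not shown to differ between the times.

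Between 24 and 48 hpf the embryo goes from the end of segmentation to hatching stages, and most Hox genes that changed with time had lower signals at the later time. In *esco2* morphants 19 of the 42 (45.2%) were changed at 48 hpf relative to 24 hpf, against 49.0% of all genes, with 5 higher (21.7% of all genes) and 14 lower (27.4% of all genes). In controls 26 of the 42 (61.9%) were changed, against 52.2% of all genes, with 7 higher (21.9% of all genes) and 19 lower (30.3% of all genes). These directions depend on the scaling. With the ribosomal centring, which raised the median of all probe sets by 0.26 in morphants and 0.17 in controls, 17 were higher and 5 lower in morphants and 12 were higher and 10 lower in controls. A fold of at least 2 was reached by 1 gene in morphants and 2 in controls, against 6.06% and 8.43% of all genes, and of at least 1.5 by 2 and 7, against 17.3% and 22.6%. The median size of the change was 0.19 in morphants and 0.27 in controls.

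*hoxb1a* had the largest change with time of the 42. It had 4.39, 4.43, 4.20 and 4.33 in morphants at 48 hpf, against 5.30, 5.23, 5.60 and 5.50 in morphants at 24 hpf, and 4.24, 4.19 and 4.19 in controls at 48 hpf, against 5.41, 5.27, 5.74 and 5.64 in controls at 24 hpf. By 48 hpf both groups lay in the range of the probe sets without a target. The change was -1.07 in morphants (adjusted p = 1.2e-07) and -1.31 in controls (adjusted p = 2.3e-08). *hoxc4a*, whose values are given above, was higher at 48 hpf by 0.61 in morphants (adjusted p = 2.3e-05) and by 1.18 in controls (adjusted p = 1.7e-08). Both genes kept direction and call under every alternative that kept them, the ribosomal centring included.

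Other genes with large changes in controls were *hoxc6b* (-0.80), *hoxc1a* (-0.80), *hoxd4a* (-0.79), *hoxb5a* (0.51), *hoxa13b* (0.51) and *hoxb6b* (0.47), each with an adjusted p of at most 7.1e-04 and each keeping its call under every alternative that kept the gene. In morphants *hoxc1a* changed by -0.53 (adjusted p = 6.1e-05) and *hoxd4a* by -0.27 (adjusted p = 0.0342; lost without morphant replicate 1, 3 or 4 at 24 hpf or 3 or 4 at 48 hpf, adjusted p = 0.08 to 0.108, and -0.01 with the ribosomal centring, adjusted p = 0.922; range over its alternatives 2.1e-04 to 0.922). The second probe set of *hoxd4a* changed more, by -0.76 in morphants (adjusted p = 3.3e-05) and by -1.04 in controls (adjusted p = 1.8e-06). The changes of *hoxc6b* (-0.22), *hoxb5a* (0.07), *hoxa13b* (0.08) and *hoxb6b* (0.08) in morphants did not pass. The comparisons of morphants with controls share these arrays, so the values stand side by side and are not separate evidence.

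The changes with time in morphants and in controls come from different arrays. Both lists held 15 of the genes (35.7% of the 42, beside 38.7% of all genes), all in the same direction as the values were deposited, while 0.284% of all genes went opposite ways. They were 78.9% of the 19 of morphants and 57.7% of the 26 of controls, where the shares over all genes were 78.9% and 74.1%. Of the 15, 4 were higher (*hoxa5a*, *hoxb3a*, *hoxb4a* and *hoxc4a*) and 11 lower (*hoxa11b*, *hoxb10a*, *hoxb1a*, *hoxb8b*, *hoxc13a*, *hoxc1a*, *hoxc8a*, *hoxc9a*, *hoxd10a*, *hoxd13a* and *hoxd4a*). Not all of these calls were firm. That of *hoxb3a* in controls was lost without control replicate 1 or 3 at 24 hpf or 1 or 4 at 48 hpf (adjusted p = 0.0625 to 0.121). That of *hoxa5a* in morphants was lost in 6 of 22 alternatives. With the ribosomal centring *hoxd10a* stood at -0.02 in morphants (adjusted p = 0.811). Past the threshold in morphants alone were 4, *hoxa9b*, *hoxb6a*, *hoxd11a* and *hoxd9a* (9.52%, beside 10.1% of all genes), and in controls alone 11 (26.2%, beside 13.3% of all genes), of which *hoxb5a* and *hoxc6b* also passed the test of the difference. *hoxa9b* changed by -0.32 in morphants (adjusted p = 0.00281), but by -0.06 with the ribosomal centring (adjusted p = 0.503; range over its alternatives 4.7e-04 to 0.503), and stood at 0.04 in controls (adjusted p = 0.708). Without control replicate 3 at 48 hpf, controls had 21 changed genes (7 higher and 14 lower).

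**Figure D3:**
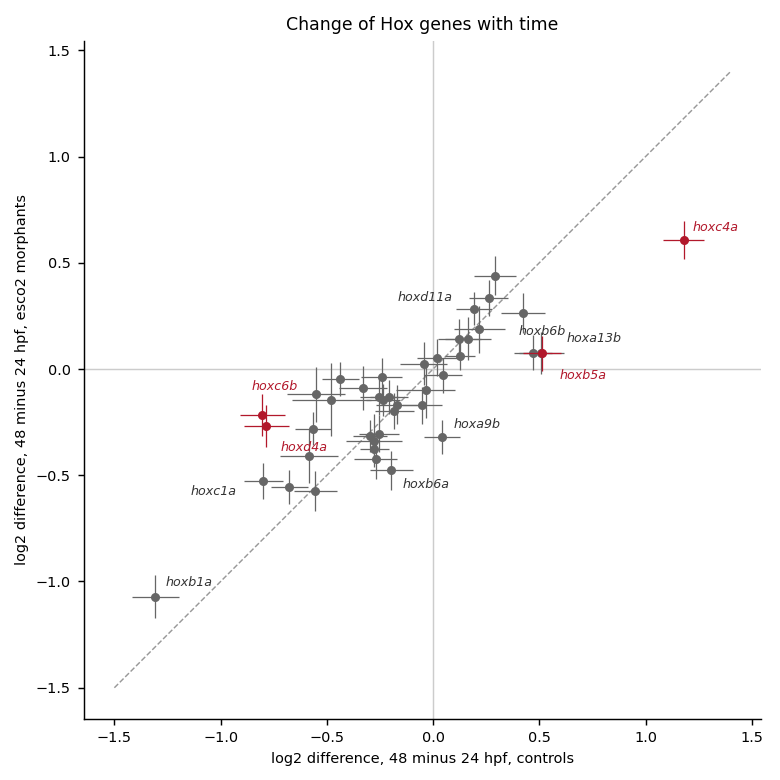
Change of each of the 42 Hox genes between 24 and 48 hpf (log2 difference, 48 minus 24 hpf) in esco2 morphants (vertical axis) against controls (horizontal axis), with standard errors as bars and equal change as the dashed line. The 4 genes in red passed the test of the difference: hoxc4a changed by 0.61 in morphants and 1.18 in controls, and hoxb5a, hoxc6b and hoxd4a also lie nearer to 0 in morphants.

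Set out by cluster, the 5 genes of the ab cluster (*hoxa2b*, *hoxa9b*, *hoxa10b*, *hoxa11b* and *hoxa13b*) were all below 0 at 48 hpf (median -0.23, 2 changed) and all below 0 at 24 hpf (median -0.23, 1 changed). With the ribosomal centring 4 of the 5 stayed below 0 at 48 hpf and the median was -0.11 (at 24 hpf, 5 of 5 and -0.21). Of all genes 48.2% were below 0 at 48 hpf and 48.0% at 24 hpf. The ab cluster was not alone in this at 24 hpf. The aa cluster had 4 of 6 genes below 0 then (median -0.23, 2 changed), and the da cluster 5 of 6 (median -0.19, 2 changed). At 24 hpf 9 of the 10 genes of the ba cluster and 3 of 3 of the cb cluster were also below 0. In the ca cluster 4 of 9 were below 0, and 3 of 3 of the bb cluster were above it. None of the genes of these 4 clusters (ba, cb, ca and bb) was changed at 24 hpf. In the ca cluster *hoxc4a* (-0.70 at 48 hpf) lies in RefSeq's order between *hoxc5a* (0.02, adjusted p = 0.932) and *hoxc1a* (0.30), so that neighbours differed in size and sign. *hoxb5a* (-0.46) and *hoxb6a* (-0.32) are next to each other in the ba cluster, and the next gene, *hoxb4a*, stood at 0.03 (adjusted p = 0.857). Across the 42 genes the rank correlation of the difference with paralog number was -0.21 at 48 hpf and -0.01 at 24 hpf, a description over genes that share arrays and are not independent. With mean signal it was -0.15 at 48 hpf and -0.36 at 24 hpf, so that brighter genes tended to have lower differences at 24 hpf. The part of signal level in the low side at 24 hpf was not tested.

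Both copies were measured for 7 genes, and only for *hoxb6* were both changed at 48 hpf. *hoxc6a* stood at 0.15 (adjusted p = 0.249) beside 0.48 for *hoxc6b*, *hoxb5b* at 0.14 (adjusted p = 0.451) beside -0.46 for *hoxb5a*, and *hoxa9a* at -0.21 beside -0.61 for *hoxa9b*. Of *hoxa11*, *hoxb8* and *hoxc11* neither copy was changed. Differences between copies were not tested.

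**Figure D4:**
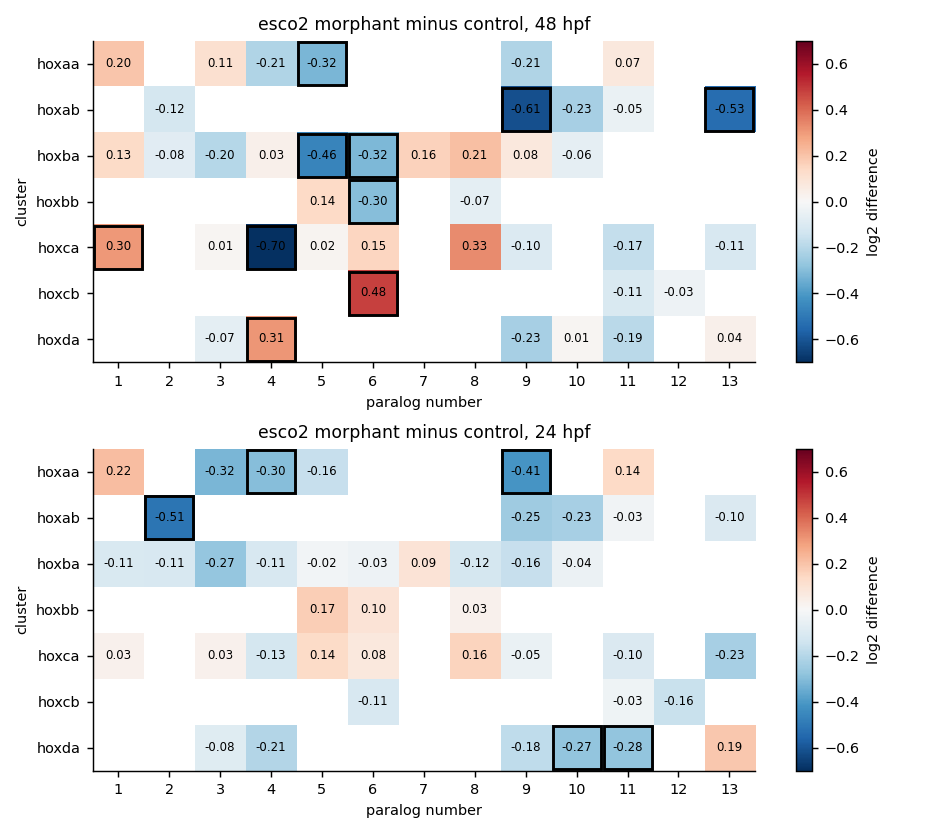
Log2 difference, esco2 morphant minus control, of the 42 Hox genes by cluster (rows) and paralog number (columns) at 48 hpf (top) and 24 hpf (bottom), with blue for lower and red for higher in morphants and white where no gene was measured. Outlined cells have an adjusted p under 0.05; the ab row is below 0 throughout at both times.

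For 29 genes only 1 probe set was present. For the 13 others, 17 further probe sets could be set beside the chosen one. At 24 hpf 1 of the 17 was changed, that of *hoxa9a*, and at 48 hpf none. For the change with time in controls 8 of the 17 were changed, 6 of them in genes whose chosen probe set was changed in the same direction and none in the opposite one. Disagreement was seen for *hoxb7a*, whose second probe set was lower at 48 hpf in controls (-0.40, adjusted p = 6.2e-04) while the chosen one was not (-0.05, adjusted p = 0.764), both being dim, and for *hoxb2a*, whose second probe set was higher at 48 hpf in controls (0.27, adjusted p = 0.0299) while the chosen one was not (0.02, adjusted p = 0.901). The reverse was seen for *hoxb8b*. Its chosen probe set changed by -0.28 in controls (adjusted p = 0.00278) and -0.38 in morphants (9.97e-05), and its second by -0.003 (0.987) and -0.03 (0.827). Both further probe sets of *hoxc8a* and 1 each of *hoxb8a* and *hoxb10a* also did not pass in controls, unlike the chosen ones. All these further probe sets had means below 5.05, in the range of those without a target.

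The genes around the Hox system were counted in lists, to be read beside all genes, of which 14.3% were higher and 11.7% lower at 48 hpf and 5.77% higher and 6.2% lower at 24 hpf. Of 13 TALE cofactors, 8 were lower and 1 higher in morphants at 48 hpf (median -0.43) and 5 were lower at 24 hpf (median -0.23), and with the ribosomal centring 7 were lower and 3 higher at 48 hpf. *meis2a* was lower at 48 hpf by -0.74 (adjusted p = 6.5e-07), *meis2b* by -0.77 at 48 hpf (adjusted p = 2.0e-05) and -0.41 at 24 hpf (adjusted p = 0.0049), and *pknox2*, a Prep gene, by -0.59 at 48 hpf (adjusted p = 4.6e-04) and -0.39 at 24 hpf (adjusted p = 0.0127). Of 6 Cdx, ParaHox and Evx genes only *evx1*, an interneuron gene of the spinal cord, was changed (-0.43 at 48 hpf, adjusted p = 0.0046), and 0 at 24 hpf.

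Of 19 genes of retinoic acid synthesis, breakdown and reception, 2 were higher and 3 lower at 48 hpf, and 2 were higher and 4 lower at 24 hpf. *crabp2a*, a retinoic acid binding protein of the cytosol, was higher by 1.34 at 48 hpf (adjusted p = 2.5e-07) and by 0.51 at 24 hpf (adjusted p = 0.0029). The receptor gene *rarga* was lower at 48 hpf (-0.44, adjusted p = 0.0012) and at 24 hpf (-0.26, adjusted p = 0.0456). Of 26 Polycomb and Trithorax genes, 2 were higher and 2 lower at 48 hpf and 3 lower at 24 hpf, among them the Polycomb genes *phc2b* (-0.98 at 48 hpf, adjusted p = 1.0e-04), *bmi1a* (0.60 at 48 hpf, adjusted p = 4.2e-04) and *cbx2* (-0.55 at 24 hpf, adjusted p = 0.0013). With the ribosomal centring 5 of these 26 were higher and 2 lower at 48 hpf.

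Of 22 hindbrain segmentation regulators, 2 were higher and 4 lower at 48 hpf, and 3 were higher and 1 lower at 24 hpf. *gbx1*, of the front hindbrain, was lower at both times (-0.86, adjusted p = 7.6e-06, and -0.80, adjusted p = 9.6e-06). *otx2b*, which also stands in the forebrain and eye list below, was lower at 48 hpf (-1.03, adjusted p = 1.8e-07) and not changed at 24 hpf (-0.11, adjusted p = 0.441). The same held for *irx1b* (-0.47, adjusted p = 5.1e-04, and 0.05, adjusted p = 0.797). Of 21 posterior body and tail bud genes, 2 were higher and 4 lower at 48 hpf, and 3 were higher and 6 lower at 24 hpf, with *hes6*, a her-related factor, lower at both (-0.70, adjusted p = 8.0e-05, and -0.65, adjusted p = 1.4e-04). *lef1* was lower at 48 hpf only (-0.75, adjusted p = 7.0e-06, and 0.09 at 24 hpf, adjusted p = 0.529). *sox19a* was lower at 24 hpf only (-0.53, adjusted p = 1.6e-04, and -0.20 at 48 hpf, adjusted p = 0.0836).

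Markers of the tissues in which Hox genes are active were also measured. Of 26 hindbrain and spinal cord markers, 13 were lower and 1 higher at 48 hpf (median -0.27), and 8 were lower and 0 higher at 24 hpf (median -0.19). Their summed linear signal was 2492 to 2583 in morphants and 3090 to 3494 in controls at 48 hpf, and 1839 to 1971 in morphants and 2175 to 2340 in controls at 24 hpf, without overlap at either time. *lhx5* was lower at both (-1.07, adjusted p = 5.0e-08, and -0.51, adjusted p = 9.3e-05), as was *olig2*, a motor neuron progenitor gene (-0.56, adjusted p = 7.8e-05, and -0.66, adjusted p = 8.9e-06). *gata3* was lower at 48 hpf (-0.71, adjusted p = 1.3e-05) and not changed at 24 hpf (0.11, adjusted p = 0.434). Without control replicate 3 at 48 hpf, 13 were lower at 48 hpf and 11 at 24 hpf, and with the ribosomal centring 11 were lower at 48 hpf (median -0.15) and 5 at 24 hpf (median -0.16). The part of these cells in the Hox values was not tested.

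Of 31 genes of the forebrain and eye, where Hox genes are silent, 12 were lower and 2 higher at 48 hpf (7 and 8 with the ribosomal centring) and 5 were lower at 24 hpf. Their summed linear signal at 48 hpf was 2968 to 3128 in morphants and 3724 to 4102 in controls. At 24 hpf it was 2480 to 2651 in morphants and 2713 to 2914 in controls. As for the hindbrain and spinal cord markers, the sums did not overlap at either time. This was not particular to neural markers. The sums of the TALE cofactors (3392 to 3596 in morphants, 4384 to 4712 in controls at 48 hpf) and posterior body genes were also lower without overlap at both times. Those of the pectoral fin bud and pronephros genes were higher without overlap at 24 hpf, and those of the somite and fin fold genes overlapped at both times. In the forebrain and eye list *crx* was lower at 48 hpf by -1.80 (adjusted p = 4.1e-07), *vsx1* by -1.42 (adjusted p = 8.0e-07) and *otx2b* by -1.03 (adjusted p = 1.8e-07). At 24 hpf *vsx1* was lower (-0.48, adjusted p = 0.0138), and *crx* (-0.14, adjusted p = 0.62) and *otx2b* (-0.11, adjusted p = 0.441) were not changed. Of 22 pectoral fin bud genes, 2 were higher and 3 lower at 48 hpf, and 4 were higher at 24 hpf. Of 20 somite genes, 4 were higher and 2 lower at 48 hpf and 2 lower at 24 hpf. Of 11 pronephros genes, 3 were higher and 2 lower at 48 hpf and 1 higher at 24 hpf, and of 11 fin fold genes, 2 were higher and 2 lower at 48 hpf and 2 higher and 1 lower at 24 hpf. Some genes stand in more than 1 list. The 2 lower pronephros genes, *lhx1a* and *pax2a*, are also in the hindbrain and spinal cord list. With the ribosomal centring 6 pectoral fin genes were higher and 1 lower and 6 pronephros genes higher and 2 lower at 48 hpf, as were 4 and 2 of the posterior body genes and 4 and 4 of the hindbrain segmentation genes. Without control replicate 3 at 48 hpf the somite list had 2 higher and 3 lower genes at each time. The part of these cells in the Hox values was not tested.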

How the data were processed

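Pooled RNA of whole embryos was measured on 15 Affymetrix zebrafish arrays. The deposited values are log2 signals made by the authors with RMA, which corrects background, normalizes arrays by quantiles and summarizes probes, once AffyQCReport had checked the chips; tool versions are not given in the sources used here. They were used as deposited. Quantile normalization sets changes relative to all probe sets. Precision is limited by the number of arrays.

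Symbols came from the platform annotation: of 15617 probe sets, 115 controls were left out, and 10795 had 1 symbol, 135 several and 4572 none. The RefSeq table (GRCz12tu) served for names and gene order only. Which strand each probe set reads is not given in the sources used here. The names of some chosen probe sets, those of *hoxc8a* and *hoxd11a* among them, carry an A. Its meaning was not interpreted. Group means were fitted with lmFit over the 15 arrays together, and contrasts were tested with eBayes, two-sided, with Benjamini-Hochberg adjustment over all 15502 probe sets (limma 3.58.1, R 4.3.3; tables with Python 3.11.15 and pandas 2.3.3, figures with matplotlib 3.10.9). Every adjusted p comes from limma, as a mean difference with its standard error. Replicates are pools of embryos. Nothing says that equal replicate numbers are related, and p-values measure the spread between these pools. The code was tested on simulated data.

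The members and lists were chosen with earlier results of these data known. Values per array are given for members changed between morphants and controls (up to 14), those with the 4 largest rises and 4 largest falls with time in controls, the brightest and dimmest, and those on both sides of the threshold; *hoxc8a* and *hoxb8a* were added after their values were seen. From each list up to 3 genes with the smallest adjusted p were eligible. Other settings tried were a replicate block, a separate fit per time, filters on dim probe sets, cyclic loess, ribosomal centring, weighted arrays, trended robust eBayes, averaged probe sets per gene, fold thresholds and leaving out each array. For the lists, scaling and the fit without control replicate 3 at 48 hpf were chosen after seeing the data. No sequence is shown.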

Additional observations from a re-analysis of the deposited data

Results flagged for a closer look

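The effect of the morpholino differed between 48 and 24 hpf, by a test of the difference itself, for *hoxc6b* (0.59, 48 hpf minus 24 hpf on the log2 scale), *hoxd4a* (0.52), *hoxc4a* (-0.57) and *hoxb5a* (-0.44). The call held in all 21 alternatives that kept *hoxc6b* and all 23 for *hoxc4a*, and in 12 of 23 for *hoxd4a* and 10 of 23 for *hoxb5a*.

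In 6 of the 54 groups of 4 arrays examined, 1 array lay far from the other 3; chance gives about 1 in 20. At 48 hpf these were morphant replicate 4 for *hoxc4a* (6.97, others 6.84 to 6.85) and for *hoxd10a* (6.71, others 6.39 to 6.41), morphant replicate 1 for *hoxa4a* (6.34, others 6.07 to 6.1) and morphant replicate 3 for *hoxc1a* (4.45, others 4.79 to 4.83). At 24 hpf they were morphant replicate 4 for *hoxa2b* (6.96, others 7.0) and control replicate 2 for *hoxa1a* (3.79, others 3.67 to 3.68).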

How the results depend on the processing

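Counts of changed Hox genes depended on the threshold and on single arrays. Morphants against controls at 48 hpf gave 10; each time fitted alone gave 5, probe sets at or above the median signal 6, a fold of at least 2 gave 0 and of 1.5 gave 2, and leaving out 1 array gave 5 to 11. At 24 hpf the 5 became 9 with the time fitted alone, 10 with array weights, 0 with either fold, and 2 to 9 without 1 array. The 4 effects that differed between times became 8 with array weights, 0 and 1 with folds of 2 and 1.5, and 2 to 5 without 1 array. The change with time gave 19 in morphants (11 at or above the median signal, 1 and 2 with the folds, 16 to 21 without 1 array) and 26 in controls (16, 2 and 7, and 19 to 25). Of the 4 effects that differed between times 2 were higher and 2 lower; ribosomal centring also gave 4 (3 higher, 1 lower) and cyclic loess 5 (1 higher, 4 lower), each sharing 3 genes with the first 4. Deviations of equal replicate numbers correlated between 0.02 and 0.20 in the 4 pairs at 24 hpf, 3 of them over 0.1, and between -0.45 and -0.08 in the 3 pairs at 48 hpf, so the numbers were not taken to pair the arrays. With the replicate number as a block the counts were 10, 5, 3, 18 and 25. The block ended the calls of *hoxa5a* at 48 hpf (adjusted p = 0.0645) and with time in morphants (0.0504) and of the *hoxb5a* difference (0.0756). A separate fit per time ended those of *hoxa5a*, *hoxb6a*, *hoxb6b*, *hoxc1a* and *hoxd4a* at 48 hpf (0.0847 to 0.119). Cyclic loess ended those of *hoxd4a* at 48 hpf (0.0586) and for the difference (0.0527), as did averaging probe sets (0.25 and 0.0978). Of 43 calls of named genes, 26 held in every alternative, and of 975 checks 116 lost the call and 0 turned direction. Lost most often were those of *hoxa9a* with time in controls (15 of 22), *hoxd4a* at 48 hpf (13 of 24) and *hoxb5a* for the difference (13 of 23). Many of the 975 checks could not turn direction. Filters on dim probe sets, trended robust eBayes and separate fits per time leave the difference itself as it was. So does leaving out an array that is not in the comparison.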
